A study of Gallus gallus with 2 samples.

Results

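Transcripts of 8 genes of the Notch pathway were followed in single cells of the chicken peritoneum. They were the ligands *JAG1*, *JAG2*, *DLL1*, and *DLL4*, the receptors *NOTCH1* and *NOTCH2*, and the target genes *HEY1* and *HEY2*. They were chosen by symbol, each with 1 row in the deposited gene list, and made up 8 of its 29558 features. Their levels were read in barcodes with more than 1000 genes, which were 5866 of 7157 barcodes in the HVP-labelled library and 5464 of 6981 in the Normal-labelled library.

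The study compared peritoneum darkened by hyperpigmentation of the visceral peritoneum (HVP) with peritoneum of normal colour. All birds were Huiyang Bearded chickens, a Chinese native breed, aged 40 days, with 10 birds per group. Each group gave 1 droplet library of whole peritoneal tissue, and no barcode can be traced to its bird. No treatment or altered allele was described for either group. The sample titles give each library's group, but the names of that library's own deposited files give the opposite group. The libraries are therefore called HVP-labelled and Normal-labelled, by their titles, throughout, and every direction between them would turn if the file names were right. With 1 library per group no test was possible, and all 95% intervals cover counting error only.

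In Notch signalling, a Jagged or Delta-like ligand on one cell binds a NOTCH receptor on its neighbour. The receptor is then cut, and its inner part enters the nucleus, joins RBPJ, and switches on genes such as the HEY and HES repressors. In vertebrate vessels, DLL4 and NOTCH1 restrain sprouting and take part in arterial identity, and JAG1 acts between endothelial and mural cells, the pericytes and smooth muscle cells that wrap vessels. In mice, the pathway is also needed to keep the stem cells of the melanocyte lineage.

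The kept cells held a median of 5345 UMIs (unique molecular identifiers, each standing for 1 captured transcript) in the HVP-labelled library and 3818 in the Normal-labelled library, and 11 kept barcodes occurred in both libraries. Clustering without any Notch pathway gene gave 14 clusters in the HVP-labelled library and 12 in the Normal-labelled library. The blood endothelial-like clusters, 1107 and 1347 cells, had 9 of 10 blood endothelial markers raised, and the melanocyte-like clusters, 94 and 62 cells, had 10 of 13 melanocyte markers raised. Each library had 2 mural clusters, paired between the libraries by a joint clustering. The first pair, here the pericyte-marker mural clusters, had 6 of 7 pericyte markers raised and *NPY7R* among its leading genes (663 and 505 cells). The second pair, here the smooth muscle-marker mural clusters, had 9 of 9 smooth muscle markers raised (343 and 665 cells), and also 6 and 5 of the pericyte markers. The pericyte-marker mural cluster of the HVP-labelled library had all 9 smooth muscle markers raised as well, so the marker counts do not separate the mural clusters there. *MYH11*, smooth muscle myosin, was at 1184 and 367 CPM (counts of a gene per 1e6 UMIs of the cluster) in the pericyte-marker clusters and at 5355 and 4366 CPM in the others. The pericyte-marker cluster of the HVP-labelled library also had *ADIPOQ*, an adipocyte gene, among its leading genes. Skeletal muscle genes led the smooth muscle-marker mural cluster of the Normal-labelled library, where *TNNI2* was at 1192 CPM and at 0 UMIs in its partner. Both of these clusters failed the naming rule and are described by their markers only.

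*DLL4*, the Delta-like ligand of sprouting and arterial endothelium (chromosome 5, 23929187 to 23940408, GRCg7b), was almost confined to endothelial clusters. In blood endothelial-like cells it stood at 181 CPM (95% interval 171 to 193) in the HVP-labelled library and at 161 CPM (152 to 171) in the Normal-labelled library. These cells held 1046 of the 1206 *DLL4* UMIs of the first library and 1135 of the 1265 of the second. The lymphatic endothelial-like cluster of the HVP-labelled library, 34 cells, lay at 164 CPM (107 to 241) from 26 UMIs, within counting error of the blood endothelial-like cells. In the Normal-labelled library cells with lymphatic markers did not form a cluster of their own and sat within the blood endothelial-like one. No other cluster passed 22.9 CPM in either library. After every cell was thinned to 2000 UMIs, 28.2% and 26.0% of blood endothelial-like cells held a *DLL4* UMI, against 0.516% and 0.481% of fibroblast-like cells, a class that should lack it. Without thinning, the endothelial shares were 46.3% and 44.7%. Thinning left out 51 and 99 blood endothelial-like cells that were shallower. The pericyte-marker mural clusters held 20.9 and 14.6 CPM, and the leukocyte cluster of the Normal-labelled library 17.6 CPM. In the pericyte-marker cluster of the HVP-labelled library *PECAM1*, an endothelial adhesion gene at 3078 CPM in the endothelial cluster, was at 212 CPM and *CDH5*, the endothelial cadherin, at 3.13 CPM. Whether endothelial RNA contributed to the mural level was not tested.

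*JAG1*, a Jagged ligand (chromosome 3, 13191920 to 13227987), had the opposite arrangement and was highest in mural cells. The smooth muscle-marker mural clusters held 329.5 CPM (304 to 357) and 307 CPM (285 to 329) in the HVP- and Normal-labelled libraries. The pericyte-marker mural clusters held 249.5 CPM (233 to 267) and 283 CPM (258 to 309). The 2 mural intervals were apart in the HVP-labelled library and overlapped in the Normal-labelled library. Blood endothelial-like cells held 83.8 and 71.7 CPM, within counting error of the melanocyte-like cells (99.7 and 91.5 CPM), the Schwann-like cells (82.2 and 116 CPM), and the stromal clusters led by *FSHR* (78.0 and 79.4 CPM). Fibroblast-like cells lay at 60.3 and 64.6 CPM, and tenocyte-like cells 21.3 and 16.6 CPM. The mural clusters together held 44.3% and 51.1% of all *JAG1* UMIs.

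*JAG2*, the second Jagged ligand (chromosome 5, 51624172 to 51685871), resembled *DLL4* more than *JAG1*. It stood at 62.6 CPM (56.3 to 69.4) in blood endothelial-like cells of the HVP-labelled library and at 63.3 CPM (57.6 to 69.5) in those of the Normal-labelled library. Mesothelial-like cells, which line the body cavity, were at 42.0 CPM (27.2 to 62.0) and 57.1 CPM (34.4 to 89.2), and their intervals overlapped the endothelial ones. Mural clusters held at most 17.7 CPM. Fibroblast-like cells held 3.06 and 7.02 CPM.

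*DLL1*, another Delta-like ligand (chromosome 3, 40510855 to 40522846), was sparse, with 222 and 334 UMIs over all kept cells. It stood at 24.1 CPM (20.3 to 28.5) and 31.5 CPM (27.5 to 36.0) in blood endothelial-like cells. The smooth muscle-marker mural clusters were at 22.3 CPM (15.9 to 30.3) and 26.3 CPM (20.4 to 33.4), with intervals that overlapped the endothelial ones, whereas the pericyte-marker mural clusters were at 3.44 and 5.84 CPM. The highest value outside the lymphatic cluster lay in mesothelial-like cells, with 26.9 CPM (15.4 to 43.6) from 16 UMIs and 66.2 CPM (41.5 to 100.2) from 22 UMIs. In the Normal-labelled library that interval lay above the endothelial one. Melanocyte-like cells held 0 *DLL1* UMIs in both libraries, which allows up to 7.67 and 13.7 CPM by a limit of 3 counts.

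**Figure D1:**
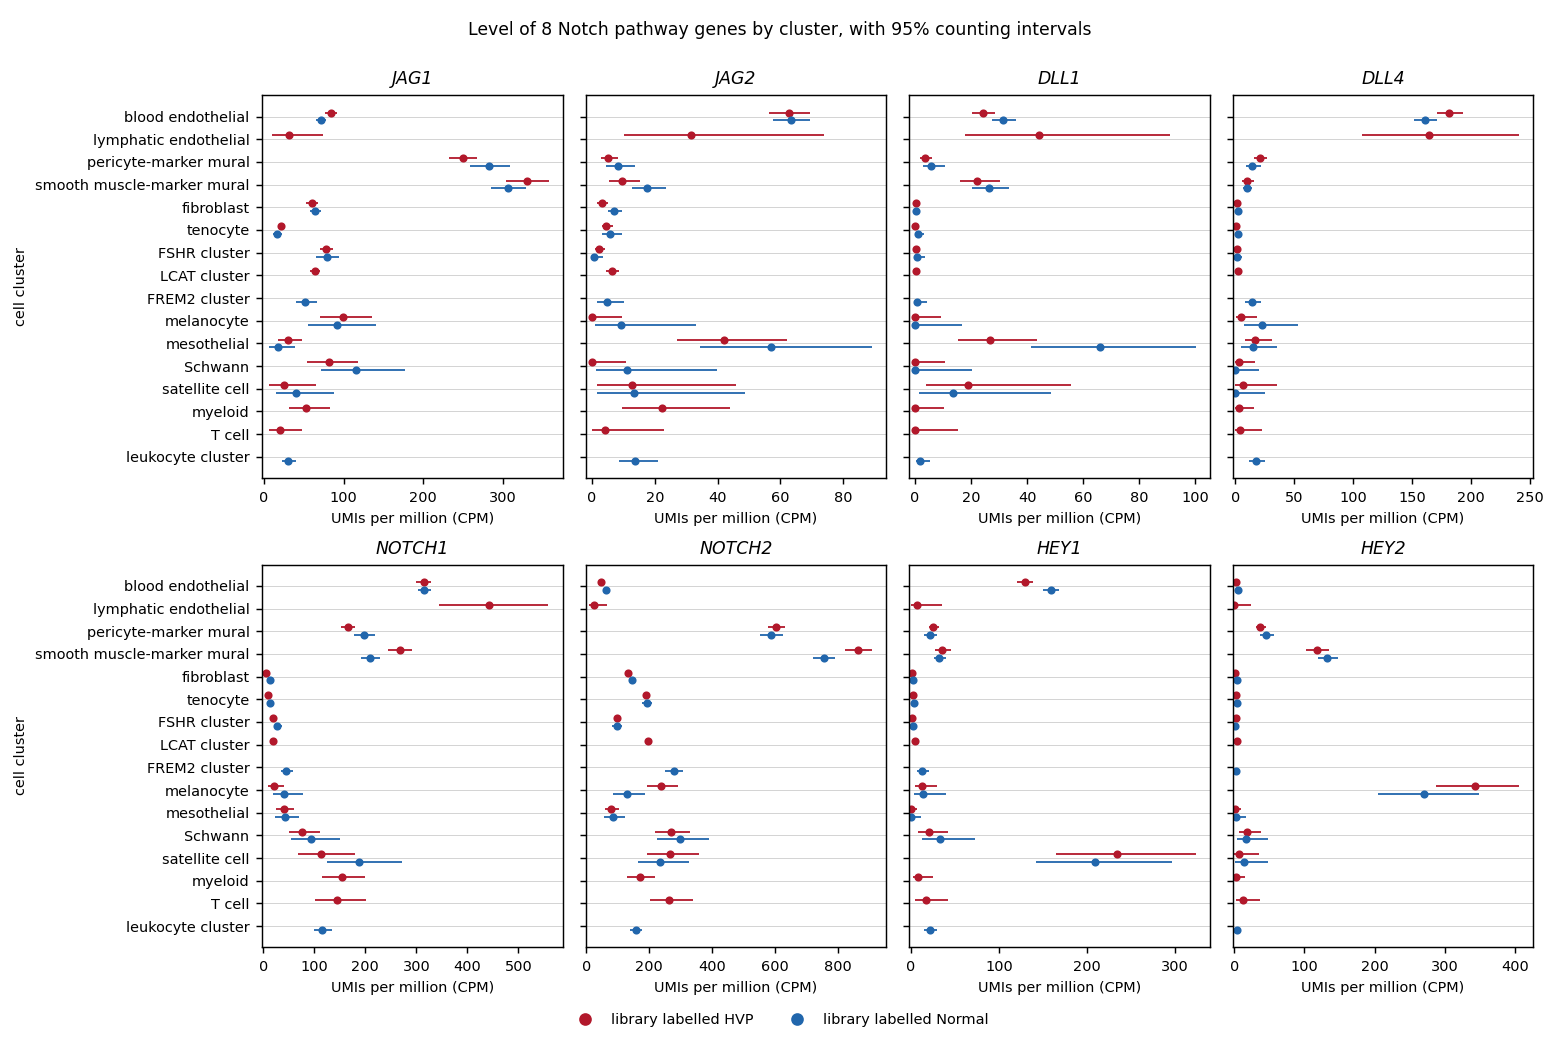
Level of each gene, in scaled UMIs (CPM, horizontal axis, starting just below 0), in each cluster (vertical axis) of the libraries labelled HVP (red) and Normal (blue), with bars for 95% Poisson intervals. *DLL4* stands out in both endothelial classes, *JAG1* and *NOTCH2* in the mural clusters (329.5 and 865 CPM in smooth muscle-like cells of the HVP-labelled library), *HEY1* in blood endothelial and satellite cells, and *HEY2* in melanocyte-like cells (343 and 269.8 CPM).

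*NOTCH1*, the receptor through which endothelial cells read DLL4 (chromosome 17, 8415416 to 8451054), was highest in endothelium but not limited to it. Blood endothelial-like cells held 315 CPM (300.3 to 329) in the HVP-labelled library and 316 CPM (303 to 329) in the Normal-labelled library. The lymphatic endothelial-like cluster was at 442 CPM (345 to 559), above the blood endothelial interval. Mural clusters ranged from 166 to 267 CPM in the HVP-labelled library and from 198 to 210.0 CPM in the Normal-labelled library. The myeloid-like and T cell-like clusters of the HVP-labelled library stood at 154 and 145 CPM, and the mixed leukocyte cluster of the Normal-labelled library at 116 CPM. Fibroblast-like cells, at 6.13 and 12.5 CPM, and tenocyte-like cells, at 10.3 and 13.1 CPM, were lowest. After thinning, 47.3% and 45.1% of blood endothelial-like cells held a *NOTCH1* UMI against 1.68% and 2.32% of fibroblast-like cells (69.6% and 70.7% against 3.22% and 5.15% without thinning).

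*NOTCH2*, a receptor with the reverse pattern (chromosome 8, 4165167 to 4244193), was low in endothelium and high in the cells around it. It stood at 865 CPM (823 to 909) and 756 CPM (722 to 790.1) in the smooth muscle-marker mural clusters, and at 604 CPM (577 to 631) and 588 CPM (552 to 626) in the pericyte-marker mural clusters. The intervals of the 2 mural kinds did not overlap in either library. Blood endothelial-like cells held 45.6 CPM (40.3 to 51.5) and 61.2 CPM (55.6 to 67.3), lower than every other cluster but the lymphatic one, which was at 25.3 CPM from 4 UMIs. The mesothelial-like intervals reached up from 58.0 and 56.0 CPM and overlapped the endothelial interval in the Normal-labelled library only. The stromal clusters lay between 96.0 and 277 CPM. Schwann-like cells held 269.9 and 298 CPM, and melanocyte-like cells 238 and 128 CPM.

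*HEY1*, a transcriptional repressor switched on by Notch (chromosome 2, 120346174 to 120350024), was found mainly in blood endothelial-like cells, which held 746 of its 998 UMIs in the HVP-labelled library and 1117 of its 1350 UMIs in the Normal-labelled library. The level there was 129 CPM (120.3 to 139) in the HVP-labelled library and 159 CPM (149 to 168) in the Normal-labelled library. Satellite cell-like cells, the muscle stem cells, had 235 CPM (165 to 323) from 37 UMIs in 33 cells and 209 CPM (142 to 296) from 31 UMIs in 39 cells. In the HVP-labelled library that interval lay above the endothelial one, and in the Normal-labelled library the 2 overlapped. Mural clusters held 21.6 to 35.1 CPM. The lymphatic endothelial-like cluster, close to blood endothelium in *DLL4* and above it in *NOTCH1*, held 1 *HEY1* UMI. Mesothelial-like cells held 0 UMIs in both libraries, which allows up to 5.04 and 9.02 CPM. After thinning, 16.8% and 22.8% of blood endothelial-like cells held a *HEY1* UMI against 0.129% and 0.481% of fibroblast-like cells, and the unthinned endothelial shares were 28.0% and 37.2%.

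*HEY2*, the related repressor known in vertebrates from arteries, heart, and smooth muscle (chromosome 3, 59516669 to 59527603), was highest in the pigment cells and scarce in blood endothelial-like cells taken as a whole. Melanocyte-like cells held 343 CPM (287 to 406) from 134 UMIs in the HVP-labelled library and 269.8 CPM (205 to 348) from 59 UMIs in the Normal-labelled library. This was 24.9% and 10.5% of all *HEY2* UMIs, from cells that made up 1.60% and 1.13% of the kept cells. The smooth muscle-marker mural clusters came second at 117 CPM (102 to 134) and 133 CPM (119 to 148), apart from the melanocyte-like interval in both libraries. The pericyte-marker mural clusters followed at 37.2 and 45.5 CPM. Blood endothelial-like cells held 2.08 and 5.68 CPM, and the stromal clusters 1.27 to 3.46 CPM. After thinning, 35 of 93 melanocyte-like cells (37.6%, 27.8 to 48.3) and 19 of 61 (31.1%, 19.9 to 44.3) held a *HEY2* UMI, against 0.129% and 0.240% of fibroblast-like cells. Schwann-like cells, which share the neural crest origin of melanocytes, were at 17.6 and 16.6 CPM from 6 and 3 UMIs. Melanocyte-like cells of the 2 libraries held 5 and 3 UMIs of *HEY1*.

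Against all other kept cells of the same library, 5 of the 8 genes were at least 2-fold higher in blood endothelial-like cells in both libraries. Among all genes with at least 50 UMIs, 16.1% met that limit in the HVP-labelled library and 15.4% in the Normal-labelled library. The median log2 ratio of the 8 genes was 2.80 and 2.21, beside 0.01 and -0.03 over all genes. In order of size, *DLL4* was 32.5-fold (27.5 to 38.6) and 22.2-fold (18.5 to 26.8) higher, *HEY1* 14.7-fold and 12.2-fold, *JAG2* 10.9-fold and 6.74-fold, *DLL1* 8.32-fold and 5.03-fold, and *NOTCH1* 5.81-fold and 4.23-fold. The ligands other than *JAG1*, 1 receptor, and 1 target thus leaned to the endothelium. The other receptor and the other target, *NOTCH2* and *HEY2*, were the 2 genes at least 2-fold lower there, where 21.5% and 20.4% of all genes were. *NOTCH2* had ratios of 0.178 and 0.212 and *HEY2* of 0.113 and 0.195. *JAG1* was at 0.904 and 0.651.

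The mural cells showed another set of genes. In the pericyte-marker mural clusters, *JAG1*, *NOTCH2*, and *HEY2* were at least 2-fold higher than in other kept cells in both libraries, 3 of 8, where 9.48% of all genes were in the HVP-labelled library and 7.80% in the Normal-labelled library. *JAG1* was 3.33-fold and 3.30-fold higher, *NOTCH2* 3.33-fold and 2.98-fold, and *HEY2* 2.77-fold and 2.18-fold. At least 2-fold lower were 1 of 8 in the HVP-labelled library (*JAG2*), where 24.8% of all genes were, and 4 of 8 in the Normal-labelled library (*JAG2*, *DLL1*, *DLL4*, and *HEY1*), where 24.9% were. The median log2 ratio of the 8 genes was 0.33 and -0.37, beside -0.29 and -0.31 over all genes. In the smooth muscle-marker mural clusters, the same 3 genes and *DLL1* met the limit in both libraries, and *NOTCH1* in the HVP-labelled library alone, giving 5 and 4 of 8 where 9.44% and 8.18% of all genes did. *HEY2* was 11.7-fold and 13.3-fold higher there. *DLL4* was the 1 gene at least 2-fold lower in each library, where 28.9% and 29.6% of all genes were, and the median log2 ratio was 1.80 and 0.89, beside -0.38 and -0.42 over all genes. Blood endothelial-like cells, part of the reference for mural clusters, held 16.8% and 28.3% of kept UMIs in the HVP- and Normal-labelled libraries. Outside the pericyte-marker clusters *DLL1* was at 6.76 and 13.96 CPM, *DLL4* at 36.5 and 53.4 CPM, and *HEY1* at 29.4 and 56.6 CPM. Inside them *DLL1* was at 3.44 and 5.84 CPM (11 and 10 UMIs), *DLL4* at 20.9 and 14.6 CPM, and *HEY1* at 25.3 and 21.6 CPM. The intervals of the 2 libraries overlapped for each of these genes inside the clusters. The mural counts and medians therefore do not by themselves compare the mural clusters of the libraries. In melanocyte-like cells *HEY2* was 28.8-fold (23.5 to 35.1) and 13.3-fold (9.94 to 17.4) higher than in the other cells of the library.

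Blood endothelial-like cells were clustered again, without Notch pathway genes, into 5 sub-clusters in the HVP-labelled library (H0 to H4) and 6 in the Normal-labelled library (N0 to N5). Among sub-clusters of at least 100 cells, 4 of the 7 genes with at least 50 UMIs differed at least 2-fold between the highest and lowest sub-cluster in the HVP-labelled library, where 47.6% of all genes did. In the Normal-labelled library 6 of 7 did, where 43.2% of all genes did. *NOTCH2* and *HEY1* had the widest ranges. *HEY1* was at 23.5 and 6.91 CPM in H0 and H3 but at 224 and 211 CPM in H1 and H2. In the Normal-labelled library it was at 22.9 CPM in N0 and at 229, 164, and 386 CPM in N1, N2, and N3. The intervals of the low and high sub-clusters did not overlap. The low-*HEY1* sub-clusters H0, H3, and N0, 361, 155, and 429 cells, carried 14.2%, 16.4%, and 14.6% of UMIs in mitochondrial genes, against 5.48% to 8.62% in the high ones. Their median depth was 2671, 7455, and 3480 UMIs, on both sides of the 3148.5 to 5270 UMIs of the high ones. The part of mitochondrial content in the *HEY1* difference was not tested.

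*DLL4* did not divide the sub-clusters as *HEY1* did. It stood at 161, 161, and 163 CPM in the low-*HEY1* sub-clusters H0, H3, and N0. The high-*HEY1* sub-clusters lay on both sides of this, with 236 and 134 CPM in H1 and H2 and 151, 137, and 331 CPM in N1, N2, and N3. *JAG2* was at 34.4, 19.0, and 27.3 CPM in H0, H3, and N0. It was at 98.2 CPM in H1 and 82.4 CPM in H2, and highest in N3, at 197 CPM, in the Normal-labelled library. *JAG1* was highest in H2 (119 CPM) and N3 (146 CPM), which also held the most *RGS5*, a pericyte marker, of their libraries (1586 and 1081 CPM). In blood endothelial-like cells with at least 1 *RGS5* UMI, *JAG1* was at 105 and 89.3 CPM, against 76.8 and 63.8 CPM without. The part of mural RNA in these *JAG1* levels was not tested. *NOTCH1* ran from 212 CPM in H3 to 391 CPM in H1 and from 241 CPM in N0 to 436 CPM in N3. *DLL1* was highest in H3 and N0, at 36.3 and 47.0 CPM. It was at 15.1 and 14.6 CPM in H2 and N2, where *RGS5* stood at 1586 and 444 CPM.

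Sub-cluster N3 (144 cells) had 8 of 10 arterial markers raised, among them the gap junction genes *GJA5* and *GJA4* and the transcription factor *SOX17*. It held the highest values of *DLL4* (331 CPM, 284 to 384), *JAG2* (197 CPM, 161 to 239), *NOTCH1* (436 CPM, 381 to 496), and *HEY1* (386 CPM, 335 to 443) among the sub-clusters of that library. It also had the most *HEY2* of any endothelial sub-cluster at this resolution, 14 UMIs at 26.5 CPM (14.5 to 44.5). *RGS5*, a pericyte marker, was at 1081 CPM in N3. Divided at a finer resolution of 0.6, the arterial-marker cells of that library (110 cells, again 8 of 10 markers) had *RGS5* at 48.0 CPM, *HEY1* at 427 CPM, *DLL4* at 309 CPM (256 to 371), and *NOTCH2* at 16.0 CPM. Their *HEY2*, 34.7 CPM, was the highest among the endothelial sub-clusters of that library. At that resolution the highest *DLL4* of the library, 319 CPM (246 to 406), lay in another sub-cluster of 46 cells with *RGS5* at 2976 CPM, within counting error of the arterial-marker cells. H1 (354 cells) had 4 of 10 arterial markers raised, 3 of 8 tip cell markers (*APLN*, *PGF*, and *CXCR4*), the capillary marker *FABP4*, and *RGS5* at 33.2 CPM. *GJA5* and *SOX17* were not among its raised arterial markers, and 2 that were, *SEMA3G* and *GJA4*, were also raised in H2. H1 held the highest *DLL4*, *JAG2*, and *NOTCH1* of its library, and its *HEY1* lay within counting error of that in H2. At the resolution of 0.6, a sub-cluster of 174 cells in the HVP-labelled library had 7 of 10 arterial markers raised, *GJA5* and *SOX17* among them, and 5 of 8 tip cell markers. It held the highest *DLL4* (319 CPM), *JAG2* (141 CPM), *NOTCH1* (500 CPM), and *HEY1* (238 CPM) of its library at that resolution. *HEY2*, with 12 UMIs in all blood endothelial-like cells of that library, was also highest there, at 8.79 CPM. N0 had 4 of 8 tip cell markers raised, with *DLL4* at 163 CPM. N5, 19 cells with all 8 lymphatic markers raised, held 0 *HEY1* UMIs, which allows up to 41.2 CPM.

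Among the endothelial sub-clusters of at least 100 cells, *NOTCH2* was lowest in those with the least *RGS5*, although the order of the 2 genes was not the same throughout. It reached 188 CPM in H2 and 158 CPM in N2, where *RGS5* stood at 1586 and 444 CPM, but 77.6 CPM in N3, where *RGS5* stood at 1081 CPM. It was at 3.28 to 12.5 CPM in H0, H1, H3, N0, and N1, where *RGS5* stood at 9.50 to 33.2 CPM. In blood endothelial-like cells with no *RGS5* UMI it was at 15.0 and 24.3 CPM, against 139 and 143 CPM in those with at least 1. The cells with *RGS5* were deeper, with medians of 5048 and 5063.5 UMIs against 3914.5 and 3990. *DLL4* was at 194 and 163 CPM without *RGS5*, and *HEY1* at 111 and 153 CPM. Sub-clusters H4 and N4, 60 and 45 cells, held 49299 and 44133 CPM of 3 collagen transcripts, with *RGS5* at 223 and 115 CPM, *NOTCH2* at 106 and 79.3 CPM, and *HEY1* at 59.8 and 47.6 CPM. The part of mural or stromal RNA in these *NOTCH2* levels was not tested.

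**Figure D2:**
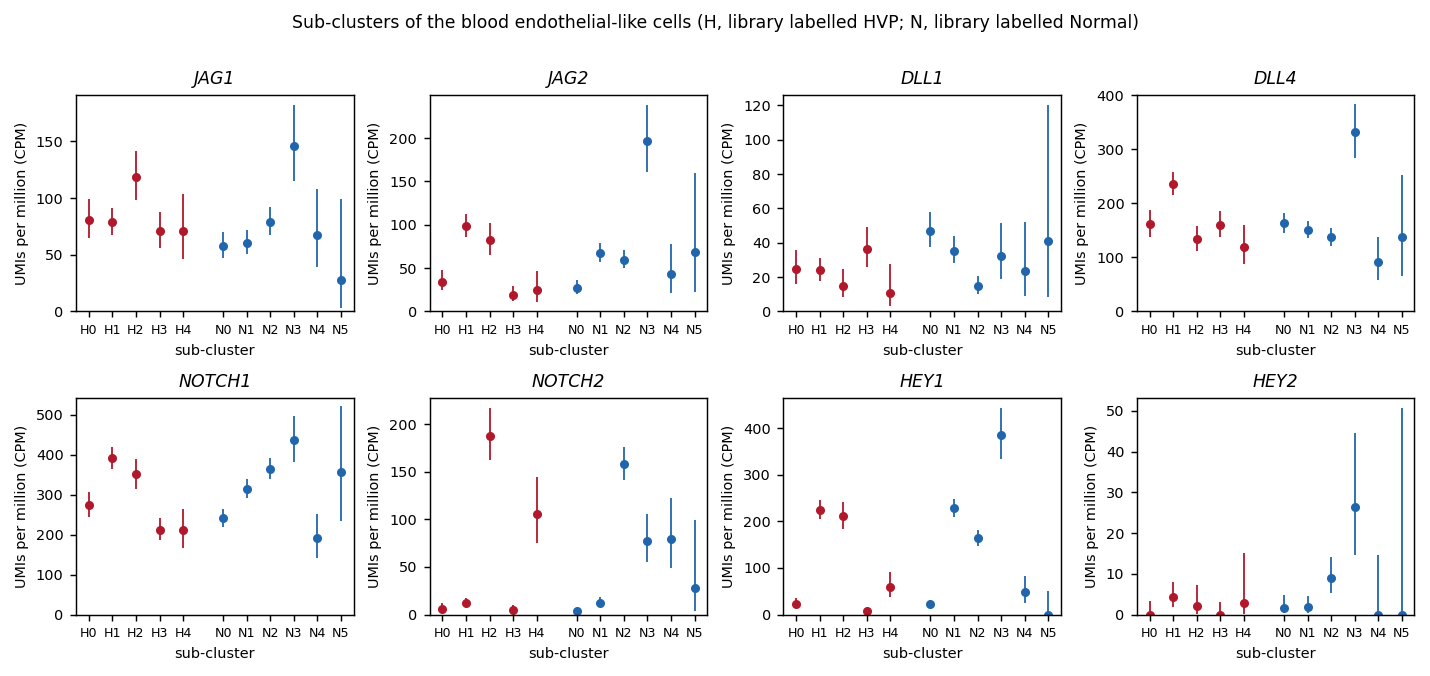
Level of each gene (vertical axis, CPM) in the sub-clusters of blood endothelial-like cells (horizontal axis; H0 to H4, red, library labelled HVP; N0 to N5, blue, library labelled Normal), with bars for 95% Poisson intervals. *HEY1* lies below 25 CPM in H0, H3, and N0 while *DLL4* lies at about 160 CPM there, and *NOTCH2* is highest in H2 and N2.

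Within single cells, the share with a *HEY1* UMI was higher in cells with a *DLL4* UMI than in those without, in both libraries. In the HVP-labelled library, 21.5% (17.0 to 26.6) of the 298 thinned endothelial cells with a *DLL4* UMI also held a *HEY1* UMI, against 14.9% (12.4 to 17.6) of the 758 without one. In the Normal-labelled library the shares were 27.2% (22.4 to 32.4) of 324 cells and 21.3% (18.7 to 24.1) of 924. The intervals overlapped in both libraries, which does not show that the shares were equal. Cells were pooled over sub-clusters that differ in *HEY1*, and the part of this mixture was not tested. For *DLL4* and *NOTCH1* the shares were 48.7% and 46.7% in the HVP-labelled library and 48.8% and 43.8% in the Normal-labelled library. *HEY1* was found in 15.2% of cells with and 17.0% of cells without *JAG1* in the HVP-labelled library, and in 30.7% and 21.7% in the Normal-labelled library, so the order of the 2 shares differed between libraries. *HEY1* and *HEY2* were found together in 1 and 2 cells.

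Of 61 further pathway genes listed, 52 were in the files and 47 had at least 50 UMIs in each library. *NOTCH3*, *NOTCH4*, and *DLL3* had no row under these symbols in the deposited gene list, so they were not analysed here. In blood endothelial-like cells 10 of the 47 were at least 2-fold higher in each library, and 7 and 6 were at least 2-fold lower, where 16.1% and 15.4% of all genes were higher and 21.5% and 20.4% lower. The median log2 ratios of the 47 genes were 0.35 and 0.23. Among further target genes, 3 of 5 were higher in each library and 0 lower, and among genes of the nuclear complex 0 of 12 were higher and 1 lower. *EGFL7*, a secreted endothelial protein that can bind Notch receptors, had log2 ratios of 5.54 and 5.12. *HES6*, a HES family member summed over 2 rows of the gene list, had 4.66 and 4.25, and *LFNG*, the Fringe glycosyltransferase that shifts receptors toward Delta-like ligands, 2.85 and 3.04. *LFNG* was also nearly missing from the smooth muscle-marker mural clusters, at 2.23 and 3.53 CPM, but not from the pericyte-marker ones, at 83.5 and 89.3 CPM. *NEURL1*, a ubiquitin ligase that acts on ligands, was lower in endothelium, with log2 ratios of -2.71 and -3.14 from 5 UMIs in each library. In melanocyte-like cells *NEURL1* was at 120.2 and 101 CPM, 33.8-fold (23.6 to 47.7) and 26.2-fold (15.7 to 42.0) higher than elsewhere, from 47 and 22 UMIs. *HES1*, the widely used HES target, was at 2 UMIs in the melanocyte-like cells of each library and more than 4-fold lower there, as were *HES6* and *EGFL7*. The cells compared against included the blood endothelial-like cells, in which *HES6* and *EGFL7* stood high. The ratios of these 2 genes therefore do not set melanocyte-like cells apart from other non-endothelial cells. *RBPJ*, the DNA-binding partner of cut receptors and the 1 nuclear gene that was lower in endothelium, was named after its values were seen. It had log2 ratios of -1.89 and -2.08 in endothelium, with 30.2 and 25.3 CPM against 112 and 107 CPM in other cells.

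The mural clusters were marked by another HEY family gene. *HEYL* had log2 ratios of 2.90 and 2.25 in the pericyte-marker mural clusters (70.7 and 49.0 CPM) and of 3.17 and 2.50 in the smooth muscle-marker ones (96.3 and 49.8 CPM). *EGFL7* and *HES6* were at least 4-fold lower in both kinds of mural cluster in both libraries. Here too the other cells included blood endothelial-like cells, so these ratios do not set mural clusters apart from other non-endothelial cells. *LFNG* and *MFNG*, a second Fringe gene, were at least 4-fold lower in the smooth muscle-marker clusters, *MFNG* from 1 UMI in each. Over the 47 genes, 7 and 3 were at least 2-fold higher in the pericyte-marker mural clusters, where 9.48% and 7.80% of all genes were, and 8 and 6 at least 2-fold lower, where 24.8% and 24.9% were. In the smooth muscle-marker clusters 5 and 2 were higher, where 9.44% and 8.18% of all genes were, and 14 in each library lower, where 28.9% and 29.6% were.

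**Figure D3:**
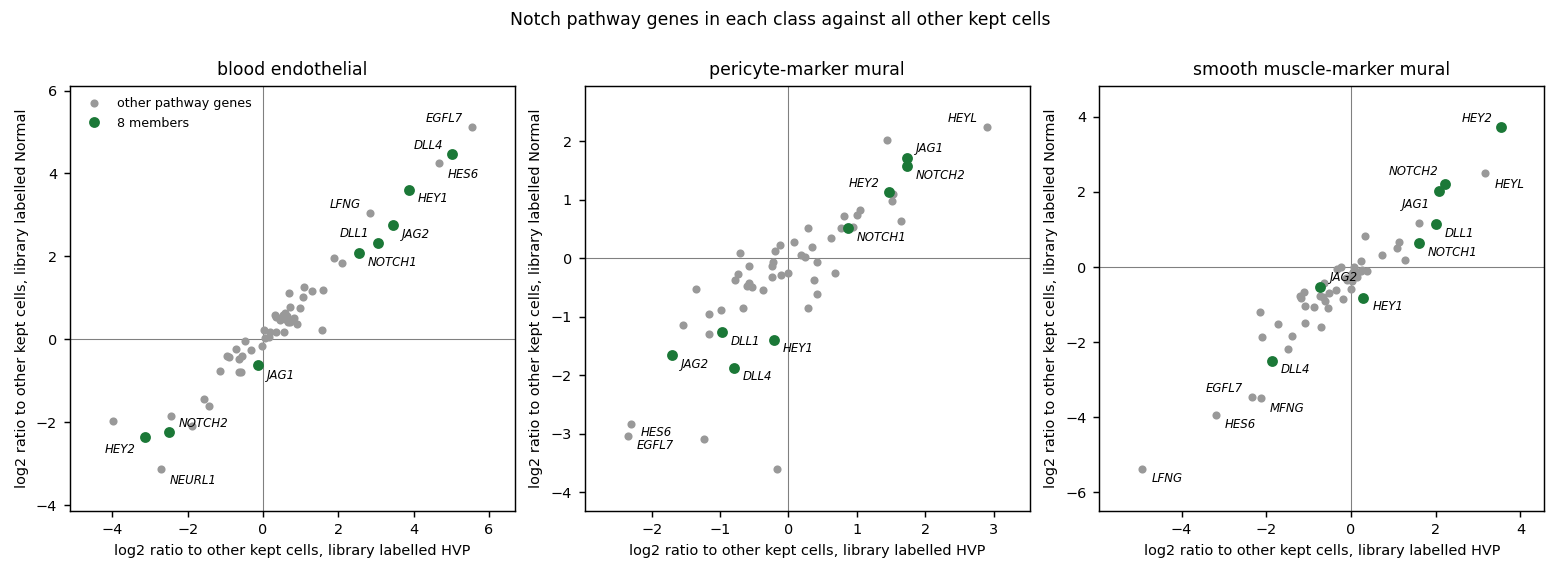
Log2 ratio of the CPM in blood endothelial, pericyte-marker mural, and smooth muscle-marker mural cells to that of all other kept cells, in the HVP-labelled library (horizontal axis) and the Normal-labelled library (vertical axis), for the 8 genes (green) and other pathway genes with at least 50 UMIs (grey). *EGFL7* (5.54 and 5.12) and *DLL4* (5.02 and 4.47) lie at the upper end in endothelium, and *HEY2* (3.55 and 3.73) in the smooth muscle-marker clusters.

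The 8 genes were compared between the libraries within blood endothelial-like cells. Among all genes with at least 50 UMIs, 13.0% were at least 1.5-fold apart in either direction. Of the 8, 1 was, a share near that of all genes. That gene was *HEY2*, at 12 UMIs in the HVP-labelled library and 40 in the Normal-labelled library, a ratio of 2.73 (1.40 to 5.71). The count was 0 under a mitochondrial limit of 5%, after thinning to 2000 UMIs, and with the class taken from each cell. A gene under 50 UMIs in both libraries together was not counted, and *HEY2* lay close to that limit. After thinning, 3 and 14 of these cells held a *HEY2* UMI. A count of 0 here therefore does not show that the difference went away. *NOTCH1* had a ratio of the Normal-labelled library to the HVP-labelled library of 1.00 (0.943 to 1.07), *JAG2* of 1.01 (0.878 to 1.16), *DLL4* of 0.888 (0.816 to 0.967), and *JAG1* of 0.856 (0.754 to 0.971). *HEY1* had 1.23 (1.12 to 1.35), *DLL1* 1.31 (1.05 to 1.63), and *NOTCH2* 1.34 (1.15 to 1.57). The intervals of all but *NOTCH1* and *JAG2* did not include 1. Differences among birds are not covered by them. An *RGS5* UMI was found in 239 of the 1107 cells and 350 of the 1347. Without those cells, *HEY2* fell under 50 UMIs in both libraries together, and *NOTCH2* was the 1 gene at least 1.5-fold apart, at 15.0 and 24.3 CPM (log2 ratio 0.70).

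In the pericyte-marker mural clusters 0 of the 6 genes with at least 50 UMIs were 1.5-fold apart, where 11.3% of all genes were, with ratios from 0.696 (*DLL4*, 0.421 to 1.12) to 1.22 (*HEY2*, 0.907 to 1.64). That count was 1 under 5 alternatives of filtering, clustering, and thinning. It was 2 with the class taken from each cell, which gave 259 and 274 cells in place of 663 and 505. In the smooth muscle-marker mural clusters 1 of 7 was, where 16.7% of all genes were. It was *JAG2*, with 17 and 45 UMIs and a ratio of 1.87 (1.05 to 3.48). The count was 0 after thinning and 2 with the class taken from each cell. After thinning, 4 and 24 of these cells held a *JAG2* UMI, too few for the minimum of 50 UMIs, so that 0 does not show equal levels. In melanocyte-like cells 1 of 3 was, where 21.2% of all genes were. It was *NOTCH2*, with 93 and 28 UMIs and a ratio of 0.538 (0.340 to 0.829). *HEY2* had a ratio of 0.787 (0.570 to 1.08) there, and its difference was within counting error.

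In fibroblast-like cells 2 of 4 genes were at least 1.5-fold apart, where 15.5% of all genes were. They were *JAG2*, at 3.06 and 7.02 CPM, and *NOTCH1*, at 6.13 and 12.5 CPM, both under their endothelial levels of 62.6 CPM or more. *PECAM1* was at 72.4 and 129 CPM and *CDH5* at 91.7 and 56.4 CPM in the same cells, and the part of endothelial RNA in these levels was not tested. The fibroblast-like clusters of the libraries were also not alike. Clustered together, the joint fibroblast cluster took 99.4% of the HVP-labelled cluster, 88.4% of the Normal-labelled one, and 70.0% of the cells of a further stromal cluster of the HVP-labelled library led by *LCAT*. In that joint cluster, looked at after seeing the data, *NOTCH1* had a ratio of 1.40 (0.975 to 2.01) and *JAG2* of 1.54 (0.939 to 2.51), so 1 of 4 genes was 1.5-fold apart, where 8.96% of all genes were, and both intervals included 1. *NOTCH2* and *JAG1* had ratios of 1.09 and 1.07 in the fibroblast-like clusters.

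Over all kept cells together the picture differed. *DLL1* had a ratio of 2.08 (1.75 to 2.47), *HEY1* of 1.87 (1.72 to 2.03), and *JAG2* of 1.61 (1.43 to 1.81), giving 3 of 8 genes at least 1.5-fold apart where 16.4% of all genes were. *NOTCH1* and *DLL4* had ratios of 1.46 and 1.45, while *NOTCH2* had 1.02. Blood endothelial-like cells held 16.8% of the kept UMIs in the HVP-labelled library and 28.3% in the Normal-labelled library. Over a whole library, the number of endothelial cells captured and the transcripts per cell cannot be told apart.

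**Figure D4:**
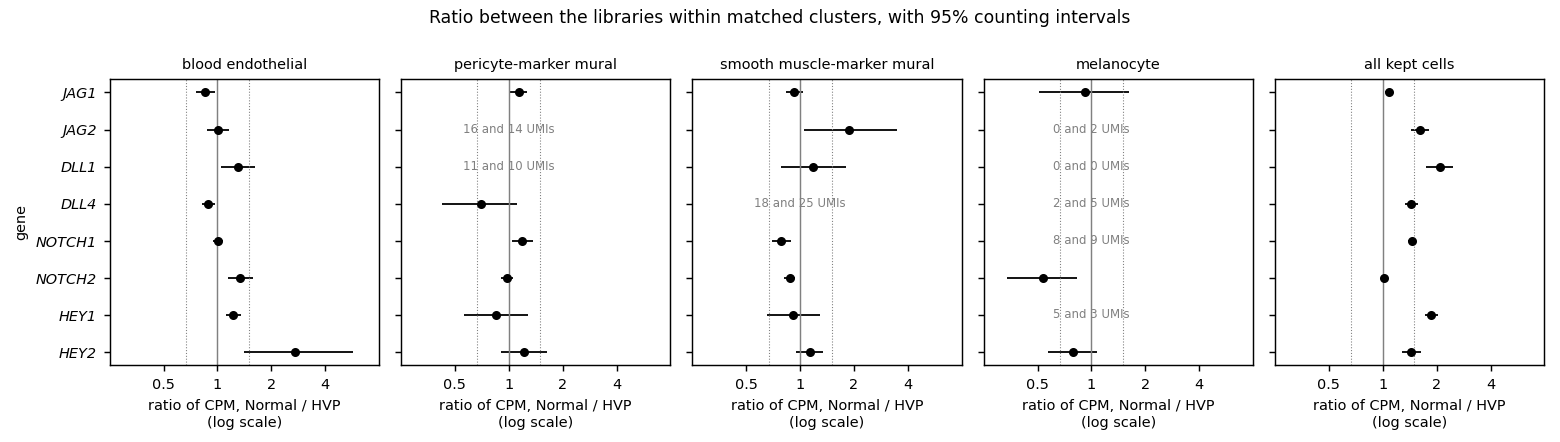
Ratio of the CPM in the Normal-labelled library to that in the HVP-labelled library (horizontal axis, log scale) for each gene (vertical axis) within 4 matched classes and over all kept cells, with bars for 95% counting intervals and dotted lines at 1.5-fold. Genes with fewer than 50 UMIs are given by their UMIs in the HVP- and Normal-labelled libraries. In blood endothelial cells *HEY2* alone, at 2.73, lies outside the dotted lines, whereas over all cells *JAG2*, *DLL1*, and *HEY1* do.

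For each member, the genes with the most similar profile were sought among 9243 genes with at least 200 UMIs per library, over 14 points, the 7 classes named in both libraries. The mural clusters, which bore no shared name, were not among the points, and points of a library share its depth. Pearson correlations of the best 3 genes ranged from 0.869 to 0.955. As the best of 9243 genes over 14 points, such values are raised by the choice itself, and no background was computed. The nearest genes were *STARD8* for *JAG1* (0.930), *FAM117A* for *JAG2* (0.883), *DAAM1* for *DLL1* (0.936), and *PPIL2* for *DLL4* (0.955). They were *HECW2* for *NOTCH1* (0.933), *DUSP8* for *NOTCH2* (0.940), *TRPS1* for *HEY1* (0.939), and *SLC24A3* for *HEY2* (0.940). *EDNRB2*, an endothelin receptor of avian melanocytes and a marker used to name the melanocyte-like clusters, came second for *HEY2* (0.939).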

How the data were processed

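Peritoneal cells of 2 chicken libraries were measured by 3' droplet sequencing. The deposited files hold raw UMI counts per gene and barcode, which per the labels the authors obtained with Cell Ranger 7.1.0 and STAR on GRCg7b. The feature and barcode files that the authors deposited hold names (other, no measurement).

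Cells with more than 1000 genes were clustered per library in Seurat 5.3.0 (R 4.3.3) after log normalization, with 2000 variable genes, 20 principal components, and a resolution of 0.2 (0.3 for endothelial cells). All Notch pathway genes were left out. A cluster took a name if 3 or more markers of that name were raised at least 2-fold and found in at least 10% of its cells, unless its 10 leading genes held more markers of another type; these details, and the labels of unnamed clusters, were chosen once the clusters were known. Doublets were kept.

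UMIs were summed per cluster and scaled to CPM with exact Poisson intervals. Ratios had conditional binomial intervals, and shares had Clopper-Pearson intervals after thinning to 2000 UMIs (Python 3.11.15, numpy 2.4.6, scipy 1.17.1). Cells are not replicates, so no test was made. On simulated counts, 95.6% of the ratio intervals for 13234 genes covered the true value in the endothelial comparison of each library (12830 genes in the Normal-labelled library). These counts were independent Poisson draws, the model that the intervals assume. The share thus checks the calculation only, and spread among cells was left out. Figures used matplotlib 3.10.9.

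The members, gene lists, and markers were chosen with earlier results of these data known. Text names all 8 members, pathway genes at least 4-fold apart in both libraries with at least 50 UMIs, and for each member the 3 most similar genes, of which the first is given here. *EDNRB2* and *RBPJ* were named after their values were seen. The 4-fold rule was set for the endothelial and mural classes. The values of *NEURL1*, *HES1*, *HES6*, and *EGFL7* in melanocyte-like cells lie outside it. Alternatives covered cell filters, clustering, doublet scores, scaling, thinning, and thresholds. Gene positions are from RefSeq annotation of GRCg7b. No sequence was used here.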

Additional observations from a re-analysis of the deposited data

Results flagged for a closer look

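Barcodes with 1000 genes or fewer, 1291 in the HVP-labelled library and 1517 in the Normal-labelled library, entered no comparison but carried Notch transcripts above the limit that a count of 0 allows. That limit was 1.76 and 1.55 CPM, so low that passing it does not by itself set these barcodes apart. The 8 genes together were at 472 CPM (440 to 505) in these barcodes of the HVP-labelled library and at 549 CPM (516 to 583) in those of the Normal-labelled library. In kept cells the same sum was 511 and 632 CPM. *NOTCH1* gave 274 and 327 of these UMIs and *NOTCH2* 166 and 309, while *HEY2* gave 15 and 27.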

How the results depend on the processing

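The count of genes higher in blood endothelial-like cells was 5 in each library under every alternative run, and no called value changed direction. Counts of genes at least 1.5-fold apart between the libraries did move. The endothelial count was 0 in place of 1 with 300 to 4000 genes and under 5% mitochondrial UMIs, with the class taken from each cell, and with thinning to 2000 UMIs. The count in the pericyte-marker mural clusters was 1 in place of 0 with that mitochondrial limit, at a resolution of 0.5, with the libraries clustered together, with the top 5% of doublet scores (Scrublet in scanpy 1.11.5) left out, and with thinning, and 2 with the class taken from each cell. The count in the smooth muscle-marker mural clusters was 2 in place of 1 with the class taken from each cell, 0 with thinning, and 0 at a 2-fold limit, where the melanocyte count was also 0 in place of 1. Under the mitochondrial limit the smooth muscle-marker mural clusters gave no value, because no cells of the HVP-labelled library were assigned to them, and 23 of 32 single gene values moved by more than their counting interval. Leaving out endothelial cells with an *RGS5* UMI moved 7 of 39 gene values, and leaving out the collagen-rich and lymphatic sub-clusters moved none of 40. Both, and the joint fibroblast cluster, were chosen after seeing the data. Under the mitochondrial limit, the 480 cells of the HVP-labelled library counted as pericyte-marker mural had 8 smooth muscle and 6 pericyte markers raised. Its 251 blood endothelial-like cells also had 9 myeloid markers raised, so these classes were unlike those of the main run. With the class taken from each cell, the pericyte-marker cells numbered 259 and 274, in place of 663 and 505. The smooth muscle-marker cells then numbered 635 and 806, in place of 343 and 665, so these mural classes also differed from those of the main run. In every alternative a gene under 50 UMIs in both libraries together left the count, which by itself can lower a count to 0. Other causes of these moves were not tested. No paired analysis was possible because each group had 1 library and the labels carry no replicate numbers. Leaving out a library was not possible for the same reason. Rare clusters of 33 to 94 cells limit what can be seen of sparse genes such as *DLL1*.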
